A study of Mus musculus with 22 samples.

Results

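Platelet transcripts were followed through the blood libraries of a single-cell study of mice by means of 10 listed genes, Pf4, Ppbp, Gp9, Gp1bb, Itga2b, Tubb1, Clec1b, Treml1, Gng11 and Nrgn, taken by name from the 31053 genes of the count matrices. All 10 were found in the matrices and all 10 had at least 1 unique molecular identifier (UMI, a tag that counts 1 captured RNA molecule) in the blood libraries.

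The mice carried Prom1-CreERT2 and Rosa26ZSG, in which a tamoxifen-inducible Cre driven by Prom1 switches on the green protein ZsGreen (ZSG), and were Nalcn-wt, Nalcn-het or Nalcn-null. NALCN is a sodium leak channel, and the study asked whether losing it lets ZSG+ cells leave solid organs for the blood of mice with no tumour. Cells named ntCZC (ZSG+ cells sorted from peripheral blood) made 10 libraries, 2 from wt mice of 571 and 608 days, both male, 4 from het mice of 551 to 649 days (3 male and 1 female) and 4 from null mice of 551 to 613 days (1 male and 3 female). A library of unsorted peripheral blood mononuclear cells (PBMC) came from 1 wt male of 120 days, and 9 libraries with a usable genotype label (5 wt, 2 het and 2 null) pooled cells of 5 solid organs (lung, liver, stomach, kidney and a reproductive organ) from mice aged 551 to 654 days. Every group therefore carried the Cre and the reporter, the PBMC mouse was far younger than the others, and Nalcn was deleted only where Prom1-driven Cre had acted. Per the study's methods, red cells were lysed, living cells were gated on scatter, and the ZSG gate was set on blood of mice that had received no tamoxifen. Such a gate can set how many platelets, which are small and have no nucleus, reach a library.

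Platelets are cell fragments shed by megakaryocytes and have no nucleus, but they carry RNA left from that parent cell. Pf4 (platelet factor 4) and Ppbp (pro-platelet basic protein) are chemokines stored in their alpha granules. Itga2b is the integrin alpha subunit of the fibrinogen receptor, Gp9 and Gp1bb are subunits of the receptor for von Willebrand factor, Clec1b encodes the activating C-type lectin CLEC-2, and Treml1 encodes a receptor of the alpha granule membrane. Tubb1 is the beta-tubulin of the platelet's microtubule ring, Gng11 a gamma subunit of G proteins, and Nrgn (neurogranin) a calmodulin-binding protein also known from neurons. Several of these genes are used outside the lineage: Itga2b in early blood progenitors and mast cells, Clec1b in liver endothelium and macrophages, Gng11 in endothelium and Pf4 in some macrophages.

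Positions are those of GRCm38 in the GENCODE vM21 annotation. Ppbp (5:90768518-90770063, plus strand) and Pf4 (5:90772435-90773383, plus strand) are neighbours 2371 bases apart. Gp9 lies at 6:87778072-87779768, Clec1b at 6:129397297-129409335 and Gng11 at 6:4003904-4008445, all on the plus strand. Itga2b lies at 11:102453297-102470122 and Nrgn at 9:37544492-37552904, both on the minus strand, while Tubb1 (2:174450695-174457882) and Treml1 (17:48359916-48367176) are on the plus strand. Gp1bb (16:18620317-18622403, minus strand) shares 91.1% of its exon bases with exons of Sept5 on the same strand, so its UMI counts are uncertain.

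The 250 bases before the RefSeq start of Pf4 (GRCm38.p6, chr5:90772185-90772434, plus strand) and of Ppbp (GRCm38.p6, chr5:90768268-90768517, plus strand) are shown because these neighbours shared all 13 platelet barcodes of PBMC described below, while most ntCZC barcodes with Pf4 had no other member. Capitals mark GGAAG, the core bound by ETS factors such as Fli1, on either strand (CTTCC on the strand shown).
Pf4: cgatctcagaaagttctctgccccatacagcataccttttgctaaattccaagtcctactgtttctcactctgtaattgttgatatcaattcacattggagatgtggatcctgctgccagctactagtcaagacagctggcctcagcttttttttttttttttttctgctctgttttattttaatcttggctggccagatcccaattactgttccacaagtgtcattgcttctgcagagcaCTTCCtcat
Ppbp: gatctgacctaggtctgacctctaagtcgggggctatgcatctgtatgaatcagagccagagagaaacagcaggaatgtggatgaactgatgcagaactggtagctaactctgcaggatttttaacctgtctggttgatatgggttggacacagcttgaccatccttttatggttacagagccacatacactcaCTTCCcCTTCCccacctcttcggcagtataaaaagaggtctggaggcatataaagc
The motif occurred once in the Pf4 window and 2 times in that of Ppbp. Of the 9 members with a RefSeq promoter entry, 8 held GGAAG in these 250 bases, as did 64.1% of all 32851 promoters, so the motif is common. The GATA motifs AGATAA and TGATAA, searched on both strands with no overlap between them, were present in 0 and 1 of the 9 (Clec1b), against 9.99% and 7.94% of all promoters.

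Depth set how often a gene could be seen. The ntCZC libraries held 50 to 621 barcodes and 161541 to 2600526 UMIs each (2501 barcodes in all), the PBMC library 752 barcodes with a median of 1837.5 UMIs, and the tissue libraries 1856 to 27857 barcodes. The deposited tissue barcodes held at least 500 UMIs each, as did those of most ntCZC libraries. Barcodes went lower only in ntCZC wt replicate 3 (down to 53), ntCZC null replicate 3 (384) and PBMC (411). A platelet with few molecules could thus be present in these matrices and absent from those of tissue and of the other ntCZC libraries. The library ntCZC wt replicate 3 stood apart, with 77 barcodes, a median of 325 UMIs and 73.5% haemoglobin UMIs. The pan-leukocyte gene Ptprc was detected in 96.2% of barcodes of ntCZC wt replicate 1 but in 10.4% of those of wt replicate 3. No barcode sequence was shared between any of the 55 pairs of blood libraries. Intervals below are exact binomial (Clopper-Pearson, 95%) and cover counting error only. The limit that a count of 0 is said to allow is another measure, 3 over the number of barcodes (or of UMIs for CPM). It lies below the upper end of such an interval, as 1.08 against 1.31% for 0 of 279.

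In the PBMC library the platelet genes formed 1 small and compact set of barcodes. Pf4 was detected in 2.66% of barcodes (20 of 752), Ppbp in 2.13%, Itga2b and Nrgn in 1.99% each, Gng11 in 2.26%, Clec1b in 1.73%, Gp9 in 1.46%, Treml1 in 0.665%, Tubb1 in 0.532% and Gp1bb in 0.133%. A set of 15 barcodes had 3 or more members (1.99%, 95% interval 1.12 to 3.27%). Of these, 13 had no UMI of Ptprc or of the leukocyte markers Csf1r (the colony-stimulating factor receptor of monocytes and macrophages), S100a8 (a neutrophil calcium-binding protein), Cd79a (B cell receptor) or Cd3e (T cell receptor). These 13 held 426 to 828 UMIs each (median 554), and 4.11 to 10.0% of those UMIs came from the 10 genes.

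Those 13 barcodes accounted for nearly all platelet RNA of the library. They held 96.2% of its Pf4 UMIs, 96.3% of Ppbp, 98.0% of Nrgn, 97.7% of Clec1b, 95.5% of Gng11, 88.1% of Itga2b and 100% of Gp9, Gp1bb, Tubb1 and Treml1. The richest of them held 80 member UMIs, 44 of them Pf4, and the poorest held 26. The other 2 barcodes with 3 members contained S100a8 and Ptprc and had 3 member UMIs each. The rest of the PBMC library was almost free of these genes: none of the 176 Cd3e-positive barcodes had a member UMI (up to 1.70% allowed by a count of 0), and 3 of 238 Cd79a-positive barcodes had 1 or more.

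Among ntCZC libraries the genes were unevenly spread, which the plot of shares by library shows. Pf4 was detected in every library, with shares of 9.78 and 18.2% (wt), 8.40, 15.2, 24.1 and 0.161% (het replicates 1 to 4) and 26.9, 5.28, 14.0 and 7.12% (null replicates 1 to 4). Its mean over 10 libraries was 12.9% ± 8.43 (SD, n = 10), beside 2.66% in PBMC and 4.54% ± 4.46 (SD, n = 9) in tissue. The ranges of the 3 kinds overlapped, with het replicate 4 the lowest of all. Thinned to 1000 UMIs per barcode, the Pf4 shares were 8.52% in ntCZC, 0.366% in PBMC and 2.24% in tissue. At 500 UMIs they were 7.77, 1.59 and 1.32%. Gng11 and Clec1b were the other members with a UMI in all 10 libraries, at 4.04% ± 3.51 and 2.73% ± 2.21 of barcodes, and Gng11 was the member seen most widely in tissue.

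**Figure D1:**
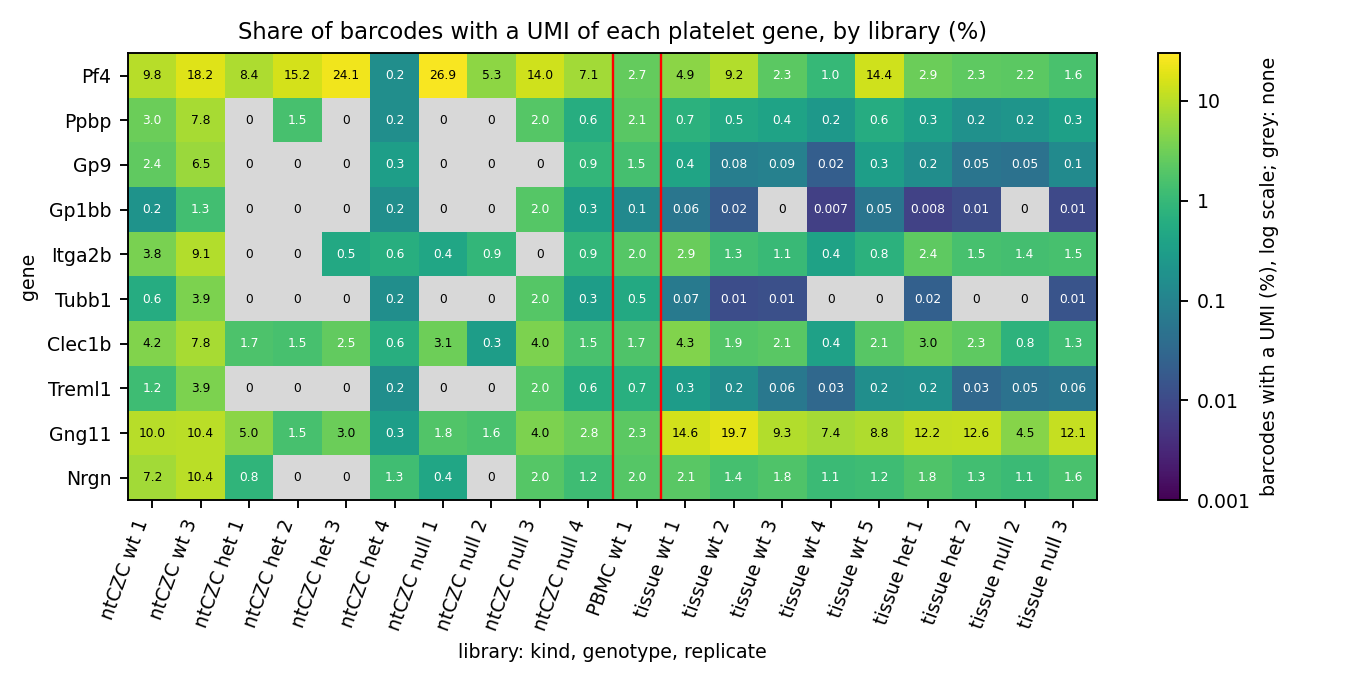
Share of barcodes with at least 1 UMI of each platelet gene in each library (colour on a log scale, value printed in %, grey where no UMI was found), with red lines between ntCZC, PBMC and tissue libraries. Pf4 and Gng11 gave the highest shares, and 5 of the 10 ntCZC libraries lacked Gp9, Gp1bb, Tubb1 and Treml1 altogether.

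The remaining 7 members were concentrated in few ntCZC libraries. Ppbp had 24 UMIs in wt replicate 1, 50 in wt replicate 3, 0, 1, 0 and 12 in the het libraries and 0, 0, 4 and 66 in the null libraries. It was thus present in 6 of 10 libraries, and in 26 barcodes in all. Gp9 had 15 and 11 UMIs in the wt libraries, 16 in het replicate 4, 37 in null replicate 4 and 0 in the other 6, where a count of 0 allows up to 1.41 to 8.86 CPM (CPM is a gene's UMIs scaled to the library's total UMIs). For Nrgn the wt libraries gave 77 and 52 UMIs, the het libraries 2, 0, 0 and 34 and the null libraries 2, 0, 12 and 186. Itga2b counts were 25 and 18 (wt), 0, 0, 1 and 22 (het) and 1, 3, 0 and 63 (null). Wt replicates 1 and 3, het replicate 4 and null replicate 4 were the libraries rich in all 4 of these genes. Treml1 had 7 and 8 UMIs in wt, 10 in het replicate 4, 3 in null replicate 3 and 27 in null replicate 4; Tubb1 had 21 UMIs and Gp1bb 9 over all ntCZC libraries.

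Detection of 3 or more members in 1 barcode occurred in 48 ntCZC barcodes from 5 of the 10 libraries: 32 in wt replicate 1, 11 in wt replicate 3, 1 in het replicate 4, 1 in null replicate 3 and 3 in null replicate 4. Averaged over libraries this was 2.38% ± 4.63 (SD, n = 10) of barcodes, against 1.99% in PBMC and 0.476% ± 0.326 (SD, n = 9) in tissue. The ntCZC mean rested on wt replicate 3, where the share was 14.3%; without that library it was 1.05%. Thinned to 1000 UMIs per barcode, which left out 291 ntCZC, 206 PBMC and 31993 tissue barcodes, the shares were 0.71, 0 and 0.144%, and the ntCZC share was 0.284% without wt replicate 3, a combination chosen after seeing the data. All 13 PBMC barcodes described above fell under that depth.

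By the share of their UMIs that came from the 10 genes, the 63 blood barcodes with 3 or more members fell into a high and a low range with nothing between 1.21 and 4.11% (a division noticed after the values were seen). The high range held 29 barcodes, 13 of PBMC and 16 of ntCZC, at 4.11 to 11.9%. Only 1 of these 29, in wt replicate 1, contained a leukocyte transcript, 1 UMI of Csf1r. The low range held 34 barcodes at 0.0293 to 1.21%, of which 32 contained a leukocyte transcript, and their median depth was 3569 UMIs against 522 in the high range. Barcodes of the high range had a median of 7 members, those of the low range 3. The ranges are in part set by depth, since 3 members make up a large share of a shallow barcode: 7 of the 29, all in wt replicate 3, held fewer than 10 member UMIs and at most 70 UMIs in all, whereas the other 22 held 10 or more member UMIs.

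**Figure D2:**
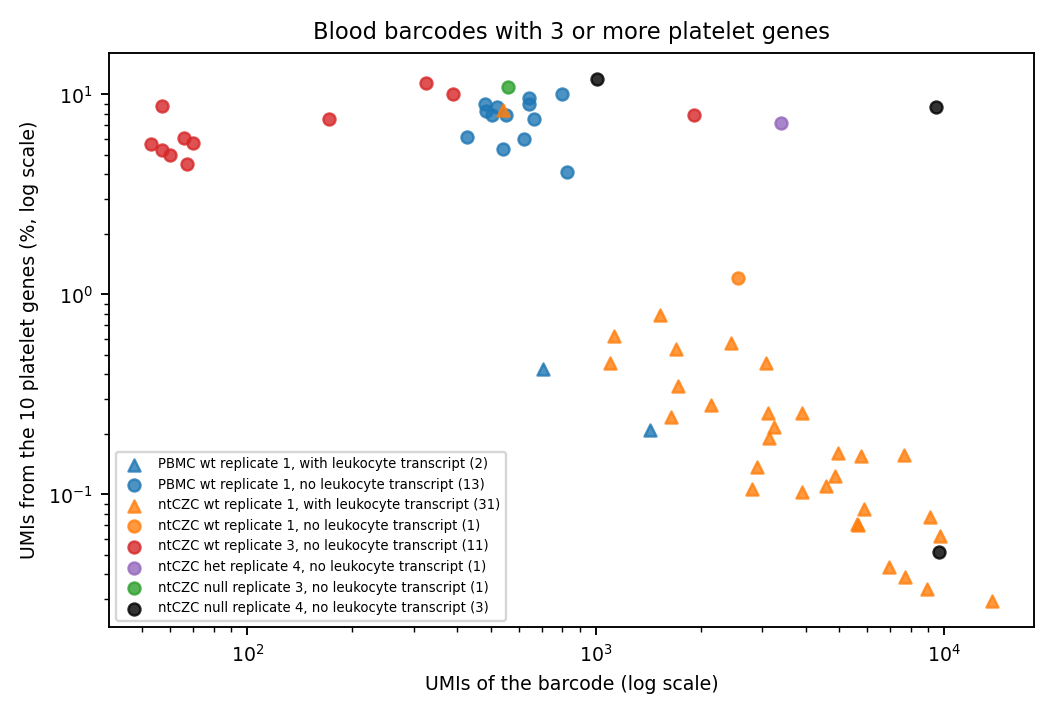
Each blood barcode with 3 or more platelet genes, by its total UMIs (x, log scale) and the percentage of them from the 10 genes (y, log scale), coloured by library; triangles had a UMI of Ptprc, Csf1r, S100a8, Cd79a or Cd3e and circles had none. Barcodes without leukocyte transcripts lie mostly above 4%, and those of ntCZC wt replicate 1 lie mostly below 1.21%.

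The barcodes with 3 or more members differed in depth between the wt libraries. In wt replicate 1, 31 of the 32 barcodes had a leukocyte transcript: 30 had Ptprc, 21 Csf1r, 13 S100a8, 1 Cd3e and none Cd79a. Their median depth was 3899 UMIs and the 10 genes gave a median of 0.157% of it, between 3 and 45 member UMIs in each. Over all 501 barcodes of wt replicate 1, Ptprc was in 96.2%, Csf1r in 64.7%, S100a8 in 24.2%, Cd3e in 5.79% and Cd79a in 2.20%. A leukocyte transcript was thus common throughout that library. In wt replicate 3 none of the 11 had such a transcript; they held 53 to 1913 UMIs (median 67), with 4.48 to 11.4% from the 10 genes and a median of 4 member UMIs. At that depth 3 members alone give such a share and a leukocyte transcript could easily be missed, so the contrast with wt replicate 1 cannot be told apart from depth. The largest of them carried 151 member UMIs, 34 of Ppbp, 32 of Nrgn and 29 of Pf4. Only 11 of the 77 barcodes of wt replicate 3 reached 200 genes with at most 20% mitochondrial UMIs, against 98.0% of barcodes in wt replicate 1.

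In the het and null libraries single barcodes decided the totals. The 8 libraries had 899 UMIs of the 9 members other than Pf4, and 808 of them (89.9%) were in 5 barcodes. One barcode of het replicate 4 (3397 UMIs) carried all 10 members and 245 of their UMIs, including every Pf4 UMI of that library (87), all 12 of Ppbp, 31 of 34 of Clec1b and 15 of 16 of Gp9. One barcode of null replicate 4 (9451 UMIs) also carried all 10, with 291 UMIs of Pf4, 163 of Nrgn, 137 of Gng11, 69 of Clec1b, 54 of Ppbp and 51 of Itga2b. Another barcode there (1008 UMIs) had 120 member UMIs, and the last (9677 UMIs, 96.3% haemoglobin) had 5. The single barcode of null replicate 3 had 61 member UMIs among 560. None of these 5 barcodes had a leukocyte transcript, and het replicates 1, 2 and 3 and null replicates 1 and 2 had no barcode with 3 members.

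Pf4 was the largest part of the platelet UMIs in each of these sets. It gave 34.5% of the member UMIs in the 13 PBMC barcodes, 26.7% in the 31 leukocyte-positive barcodes of wt replicate 1, 20.4% in wt replicate 3, 35.5% in het replicate 4 and 35.3% in null replicate 4. Nrgn gave 16.8, 23.0, 19.2, 11.02 and 19.5% in the same order, and Gng11 14.5, 21.4, 17.4, 14.7 and 16.0%. Ppbp varied more, from 4.90% in het replicate 4 to 18.9% in wt replicate 3, with 13.4% in PBMC. The libraries differed in depth and each set came from 1 library, so these shares are a description with no test.

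**Figure D3:**
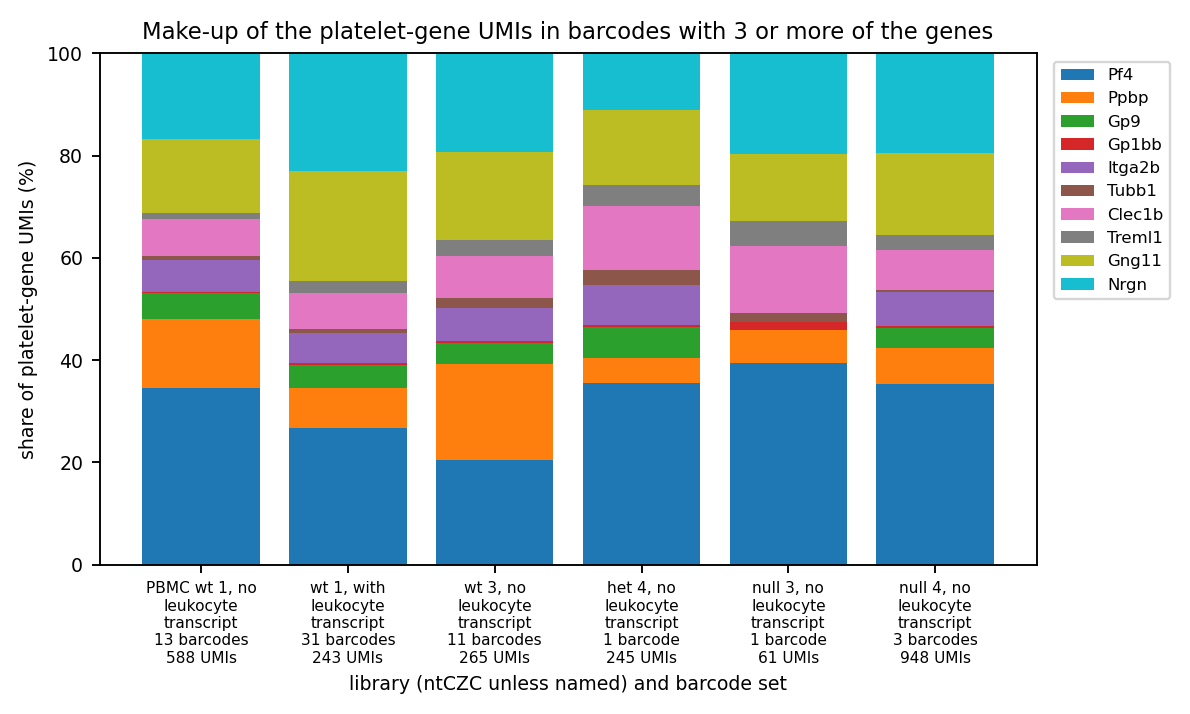
Share of each gene among the platelet-gene UMIs (stacked bars to 100%) in blood barcodes with 3 or more of the genes, by library and by presence of a leukocyte transcript. Pf4 was the largest part of every bar, between 20.4% (wt replicate 3) and 39.3% (null replicate 3).

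Outside these barcodes Pf4 parted from the other members in ntCZC. Of the 8329 ntCZC UMIs of Pf4, barcodes with at least 2 other members held 6.88%, whereas in PBMC they held 97.2% and in tissue 14.5%. Of the 239 Pf4-positive ntCZC barcodes, 160 (66.9%) had no other member, and they carried 62.2% of the gene's UMIs. For the other members the share of ntCZC UMIs found alone was 2.55% for Ppbp, 1.27% for Gp9, 5.48% for Nrgn, 8.29% for Clec1b, 10.2% for Gng11 and 11.3% for Itga2b. By barcodes these shares were 15.4, 4.55, 23.7, 27.8, 32.3 and 36.8% in the same order. In tissue 51.2% of Pf4 UMIs were alone, beside 21.6, 8.30, 44.1, 58.5, 79.0 and 52.6% for these members in that order. Ppbp, the genomic neighbour of Pf4, was alone in 4 of its 26 barcodes.

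The level of Pf4 per library and that of the other members were ordered differently. In CPM the wt libraries gave 53.6 and 396, the het libraries 814, 2270, 257 and 33.5 and the null libraries 2196, 408, 833 and 991, beside 148 in PBMC and 11.03 to 137 in tissue. The sum of the other 9 members ran differently, with 149 and 1325 CPM (wt), 21.0, 8.08, 7.41 and 66.5 (het), 11.4, 4.69, 115 and 348 (null), 281 in PBMC and 53.0 to 126 in tissue. Het replicate 2 and null replicate 1, the highest for Pf4, were among the lowest for the other 9. Single ntCZC barcodes with Pf4 and no other member reached 396 Pf4 UMIs, in null replicate 2.

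**Figure D4:**
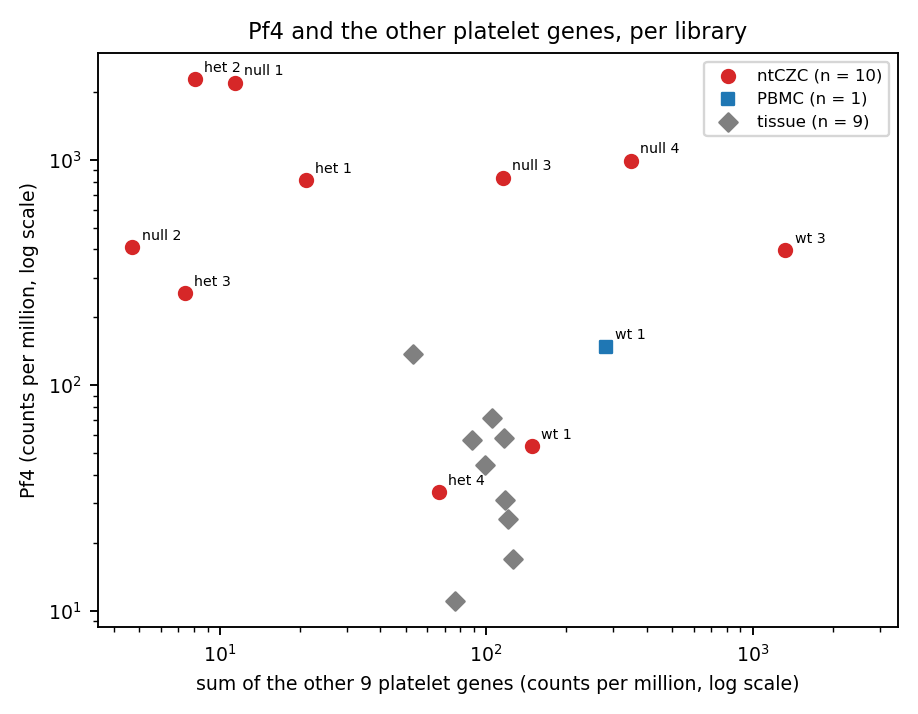
Pf4 (y) against the sum of the other 9 platelet genes (x) per library, both in CPM on log scales, for ntCZC (circles, named by genotype and replicate), PBMC (square) and tissue (diamonds). Het 2 and null 1 have 2270 and 2196 for Pf4 with 8.08 and 11.4 for the others, while wt 3 has 1325 for the others.

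Barcodes with Pf4 and no other member were led by genes outside the list. Csf1r was present in 114 of the 160 (71.25%), against 53.9% of ntCZC barcodes with no member. Both shares pool libraries that differed in Csf1r. It was in 34 of 38 such barcodes of het replicate 3 (32.7% of all its barcodes) and 31 of 49 of null replicate 1 (43.0%). The order was the other way in wt replicate 1 (11 of 19, beside 64.7%) and null replicate 2 (9 of 15, beside 74.8%), and wt replicate 3 had no Csf1r UMI. The genes with the highest ratio of detection to barcodes with no member, ranked after the values were seen, included Hal (30 against 0.185%), Gprc5b (33.8 against 0.277%), Bcam (33.1 against 0.277%), Adamtsl5 (20 against 0.0923%) and Gata6, a transcription factor known from peritoneal macrophages (24.4 against 0.277%). Of the 4 listed genes of liver sinusoidal and Kupffer cells, Vsig4, a complement receptor of several tissue macrophages, was present in 18.8% of them against 0.277% of barcodes with no member, Clec4g in 1 barcode and Stab2 and Clec4f in none. In tissue, 3448 barcodes with Pf4 alone were led by C3ar1, Ms4a7, C1qc, C1qa, Trem2 and C1qb, with C1qb in 56.7% against 6.94% of barcodes with no member.

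Other members seen alone had other companions. Itga2b alone (14 ntCZC barcodes) went with Ms4a2, Cd200r3, Mcpt8 and Cpa3, and 6 of the 14 (42.9%) had a gene of the mast cell and basophil list against 0.369% of barcodes with no member. Nrgn alone (14 ntCZC barcodes) went with Ncr1 (57.1 against 1.34%) and Gzma (7 of 14 barcodes against 1.20%), genes of natural killer cells. Of barcodes with Gng11 alone (30 in ntCZC), 33.3% held S100a9 and 26.7% Cxcr2, both known from neutrophils. Their shares in barcodes with no member are not given here, so no enrichment is read from these 2 values. In tissue, where Gng11 was alone in 85.3% of its barcodes, 78.6% of these held an endothelial marker against 23.3% of barcodes with no member. Clec1b alone in tissue (1553 barcodes) went with Kcnn3, Slc39a2 and Siglecf, and 16.9% held a gene of the liver sinusoidal and Kupffer list against 1.90%. These sets are small in blood, and depth differed between barcodes with and without a member.

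Genes outside the list were ranked by the share of barcodes with 3 or more members that held them against barcodes with no member. These sets are mixed: 31 of the 48 ntCZC and 332 of the 572 tissue barcodes held a leukocyte transcript. In tissue 267 of the 572 (46.7%) held 2 or more endothelial markers, so the leading genes need not be platelet genes. Over the 48 ntCZC barcodes the leaders were Myl9, a myosin light chain (45.8 against 0.0462%), Cdc42ep5 (22.9 against 0%), Cavin2 (20.8 against 0.0462%), Gp5, a subunit of the von Willebrand factor receptor (20.8 against 0%), Alox12, the platelet 12-lipoxygenase (25.0 against 0.0923%), and Clu (37.5 against 0.185%), followed by Tpm2, Cald1, Ctla2a and Tsc22d1. Over the 572 tissue barcodes they were Alox12 (26.6 against 0.472%), Rgs18 (26.4 against 0.873%), Npy, the integrin beta partner Itgb3 (27.3 against 2.14%), Parvb, Ltbp1, F5, Prkar2b, Sept4 and Myct1. In PBMC the set had too few barcodes for this ranking. For the longer lists, the share of barcodes with a UMI was higher in the 48 ntCZC barcodes than in the 2166 with no member for 12 of 15 platelet receptors, 10 of 11 granule proteins and enzymes, 10 of 10 signalling and cytoskeleton genes and 7 of 8 megakaryocyte transcription factors, and in PBMC for 12, 10, 10 and 5. Of all genes seen in either set, 25.2% had a higher share in the barcodes with 3 or more members in ntCZC and 9.20% in PBMC. Some differences were small or in the other direction: Rasgrp2 was in 50 against 47.1% of ntCZC barcodes, Runx1 in 29.2 against 29.7% and, in PBMC, in 0 against 20.1%.

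Beside leukocyte markers, platelet genes were detected most often with S100a8. Over all ntCZC libraries 2 or more members were present in 25 of 178 S100a8-positive barcodes (14.0%), 62 of 1386 Csf1r-positive (4.47%), 1 of 290 Cd79a-positive (0.345%), 1 of 107 Cd3e-positive (0.935%) and 23 of 647 with none of the 4 (3.55%). The product of both shares within each library, the count that independent detection would give, was 12.9, 46.7, 9.82, 4.15 and 28.3. S100a8 and Csf1r were thus above and Cd79a below that product, and median depth was 2092.5 UMIs in S100a8-positive, 4907.5 in Csf1r-positive and 3097 in Cd79a-positive barcodes. The S100a8 share depended on the setting: it was 9.02% thinned to 1000 UMIs, 3.39% thinned to 500 UMIs and 5.11% when a gene needed 2 UMIs, with 1.22, 0.412 and 1.08% for Csf1r.

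Wt replicate 1 supplied most of the S100a8 co-detections and 30 of the 62 with Csf1r. There 19 of 121 S100a8-positive barcodes (15.7%, interval 9.73 to 23.4%) and 30 of 324 Csf1r-positive (9.26%, 6.33 to 12.95%) had 2 or more members, against products of 10.9 and 29.1; the share with none of the 4 markers was 6.45%. S100a8-positive barcodes were shallower (median 1594 UMIs) than Csf1r-positive ones (3884.5). Thinned to 1000 UMIs the counts were 11 of 103 (10.7%) and 8 of 182, and 0 of 19 and 0 of 472 in the other 9 libraries. In the other 9 ntCZC libraries the counts were 6 of 57 for S100a8 and 32 of 1062 for Csf1r (3.01%), against products of 2.07 and 17.6, with 0 of 279 for Cd79a (up to 1.08% allowed by a count of 0) and 0 of 78 for Cd3e. No marker-positive barcode of those 9 libraries had 3 members.

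**Figure D5:**
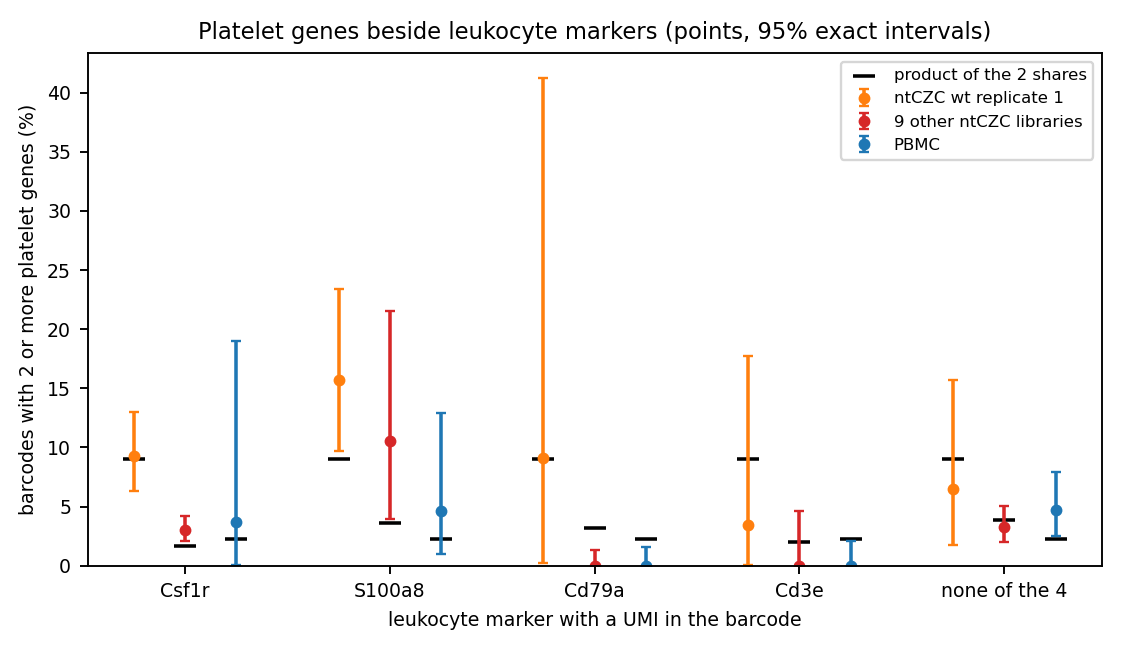
Share of barcodes with 2 or more platelet genes among barcodes with a UMI of each leukocyte marker, or of none of the 4, in ntCZC wt replicate 1, the 9 other ntCZC libraries together and PBMC (points with 95% exact intervals for counting error); black dashes give the product of both shares within libraries. S100a8-positive barcodes of wt replicate 1 gave 15.7%, and no Cd79a-positive barcode outside that library had 2 members.

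Pf4, taken by itself, was present in 11.8% of Csf1r-positive and 27.0% of S100a8-positive ntCZC barcodes but in 1.38% of Cd79a-positive and 1.87% of Cd3e-positive ones. Cd79a and Cd3e mark B and T cells, which should lack the gene, and the median depths of these barcodes were 3097 and 4970 UMIs. The shares pool libraries that differed in Pf4 and in the number of marker-positive barcodes. The source of the Pf4 UMIs was not tested. In PBMC, 5 of 65 S100a8-positive barcodes (7.69%) and 1 of 27 Csf1r-positive ones had Pf4, against 1 of 238 Cd79a-positive (0.420%) and 0 of 176 Cd3e-positive. Co-detection of 2 or more members was found in 3 of 65 S100a8-positive, 1 of 27 Csf1r-positive and 13 of 276 PBMC barcodes with none of the 4 markers (4.71%).

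Summed per library and tested with edgeR's quasi-likelihood test, Pf4 was the one member whose level in ntCZC differed from tissue under every alternative tried. Of 10681 genes tested, 64.5% were called at an adjusted p under 0.05 (28.5% higher and 36% lower in ntCZC), so a call was common. Of the 10 members, 6 passed the filter on low counts and 2 were called, both higher in ntCZC. Pf4 rose by 3.90 on the log2 scale (SE 0.719, Benjamini-Hochberg adjusted p = 7.95e-05), from 50.4 ± 38.4 CPM in tissue to 825 ± 810 in ntCZC (SD, n = 9 and 10), although the groups overlapped; without wt replicate 3 the change was 3.85 (adjusted p = 0.000149). Ppbp rose by 2.75 (SE 1.10, adjusted p = 0.0346) from 3.01 ± 1.17 to 37.8 ± 96.1 CPM. Without wt replicate 3 the change in Ppbp was 1.05 with an adjusted p of 0.181, and without null replicate 4 it was 2.62 with an adjusted p of 0.0962. The call was also lost with RLE scaling (2.59, adjusted p = 0.0542) and with the replicate number as a block (1.82, adjusted p = 0.180).

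Nrgn (log2 change 1.99, SE 0.991, adjusted p = 0.0853), Clec1b (1.14, SE 0.760, adjusted p = 0.196), Itga2b (0.82, SE 0.792, adjusted p = 0.380) and Gng11 (-0.72, SE 0.788, adjusted p = 0.439) were not called in the same edgeR fit, whereas DESeq2 called Clec1b at 2.27 (adjusted p = 0.0141). Gp9, Gp1bb, Tubb1 and Treml1 did not pass the filter, and edgeR called them when no filter was used. In that order they had 79, 9, 21 and 55 ntCZC UMIs, from 4, 5, 5 and 5 of the 10 libraries. Their mean CPM was 10.3, 1.28, 4.10 and 8.10 in ntCZC and 0.582, 0.0402, 0.0414 and 0.370 in tissue. How many genes were tested without the filter is not given, so nothing particular to the members is read from these calls. For Gng11 the call turned on 1 library: without wt replicate 3 the edgeR value was -1.74 (adjusted p = 0.00837), lower in ntCZC. Nrgn was called at 2.30 (adjusted p = 0.0381) without null replicate 2 but was 0.71 (0.429) without wt replicate 3 and 1.28 (0.309) without null replicate 4. Without the same 2 libraries Clec1b was 0.44 and 0.69, and Itga2b 0.20 and -0.09. Per barcode, Gng11 was detected in 4.04% ± 3.51 of ntCZC and 11.2% ± 4.40 of tissue barcodes, with means of 5.54 and 2.09 UMIs per positive barcode (SD, n = 10 and 9, no test). For Pf4 the means were 48.5 UMIs per positive barcode in ntCZC and 4.16 in tissue.

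The longer platelet lists held genes higher and genes lower in ntCZC than in tissue. Of those tested, 4 of 7 signalling genes, 2 of 3 receptors, 5 of 9 granule genes and 4 of 6 transcription factors were called, beside 64.5% of all genes (28.5% higher and 36% lower), so nothing particular to these lists is read from the counts. Among signalling genes 4 of 7 tested were higher in ntCZC and none lower, including Rgs18, a regulator of G protein signalling (2.99), Bin2 (2.71) and the integrin activator Fermt3 (2.45, all log2, edgeR). Among receptors 2 of 3 tested were higher, Selp (P-selectin, 2.89) and Cd226 (1.76). Of 9 granule genes tested 1 was higher, coagulation factor F5 (3.35), and 4 were lower, with Clu at -6.93, Sparc at -5.43 and Serpine2 at -4.03. Of 6 megakaryocyte transcription factors 1 was higher (Nfe2, 3.09) and 3 were lower, Tal1 (-3.95) and Gata2 (-3.13) among them. The medians of the tested genes were 2.37 for signalling, 1.76 for receptors, -0.37 for granule genes and -0.54 for transcription factors, beside -0.08 over all genes. Many of these genes are also used by leukocytes, and lists of other cells moved too: 5 of 5 endothelial and 4 of 4 epithelial markers were lower in ntCZC, 5 of 5 tested erythroid markers were higher and Ptprc was higher by 1.18. Their part in the members' values was not tested.

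Between genotypes of ntCZC no member was called with edgeR and its filter on low counts. For null against het, 0% of 9379 genes were called (686 at an unadjusted p under 0.05 with edgeR, 21 adjusted calls with DESeq2), and the 8 members tested had log2 differences of 0.56 to 1.55 with adjusted p of 0.965 to 1.00 (edgeR). The sign of all 8 turned when 1 library, het replicate 3 (the only female het library, with sex in the fit), was left out, from -1.30 (Pf4) to -6.17 (Nrgn). Without null replicate 4 the sign turned for Ppbp, Gng11, Gp9, Clec1b, Itga2b and Treml1, from -0.20 (Treml1) to -4.28 (Gp9), but not for Pf4 and Nrgn. For het against wt 0.107% of genes were called (0.0107% higher and 0.096% lower in het), and 0 of the 8 members tested. The other 7 members tested had lower values in het, with log2 differences from -4.80 (Clec1b) to -8.03 (Ppbp), an unadjusted edgeR p under 0.05 in all 7 (741 of the 9379 genes tested had one) and adjusted p from 0.339 (Ppbp) to 0.629 (Treml1), and Pf4 differed by 0.36. With no filter on low counts more genes were tested, and the number called over all genes is given in the closing section. In that fit edgeR called 4 members, all lower in het: Ppbp (-7.91, adjusted p = 0.00164), Gng11 (-5.40, adjusted p = 0.00335), Nrgn (-6.55, adjusted p = 0.00504) and Clec1b (-4.72, adjusted p = 0.0477). How many genes it tested is not given, so nothing particular to the members is read from these calls. DESeq2, given the 9379 genes that passed the filter, called 106, among them Gng11 (-5.90, adjusted p = 0.0264) and Clec1b (-5.77, adjusted p = 0.00902). In CPM, 6 of the 8 members tested (Ppbp, Gp9, Itga2b, Clec1b, Gng11 and Nrgn) were lower in each of the 4 het than in either of the 2 wt libraries, as were 1.52% of all genes tested. Het replicate 4, whose totals came from 1 barcode, was the highest het library for all of these but Gng11, and wt replicate 3 the highest wt library for all. The members are not independent here. Of the UMIs of members other than Pf4, 1 barcode held 57.0% in wt replicate 3 and 1 barcode held 91.3% in het replicate 4. Without het replicate 4 the 7 lower values moved further down, from -6.15 (Gng11) to -14.1 (Gp9), with none called (edgeR). The size of the differences rested on these libraries: without wt replicate 3 the log2 difference of Ppbp was -2.71 (edgeR, adjusted p = 0.734) and that of Nrgn -2.96 (adjusted p = 0.685), the other 5 lay between -1.31 (Treml1, adjusted p = 0.906) and -2.31 (Gng11, adjusted p = 0.671) and Pf4 was at 4.09 (adjusted p = 0.633), while without wt replicate 1 Ppbp was called at -9.36 (adjusted p = 0.0325), with the remaining wt library assumed to vary like the het ones. Markers of other cells in the same fit had these values: the 6 erythroid markers had a median log2 difference of -5.37 with none called, S100a8 was called at -9.47 (adjusted p = 0.0454; 0.114 without wt replicate 3), and Csf1r, Cd79a, Cd3e and Ptprc, at 0.68, 2.13, -1.95 and -0.51, were not called. Their part in the members' values was not tested.

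For null against wt 0% of genes were called (360 at an unadjusted p under 0.05, 13 adjusted calls with DESeq2). Ppbp had the largest difference, -6.48 on the log2 scale (edgeR, adjusted p = 0.983), and its wt and null libraries overlapped. Pf4 was at 408 to 2196 CPM in null and at 53.6 and 396 in wt, so these groups did not overlap, as for 6.02% of all genes in that direction; it was the one such member of the 8 tested, and its fitted difference was 1.07 with an adjusted p of 1.00. Without wt replicate 3 the edgeR values were -1.25 for Ppbp and 4.80 for Pf4 (adjusted p of 1.00 for both). Without null replicate 2, the only male null library, the signs of Ppbp (0.64), Gp9 (2.49), Nrgn (3.23) and Treml1 (2.33) turned, so no direction is read from these differences. In simulated counts with known log2 changes of 2 added to real genes, the test recovered 60.0% for null against het, 19.0% for het against wt and 0% for null against wt.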

How the data were processed

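Droplet 3' single-cell RNA was measured in 22 libraries. The authors deposited raw UMI counts per gene and barcode, filtered to called cells and not normalized; the submitters' processing notes name Cell Ranger 2.1.1, Seurat and mm10, whereas the matrix headers name Cell Ranger 3.0.2. Genotype and kind came from the labels, and 2 tissue libraries whose title and strain conflict entered no comparison. The labels name no animals, so p-values measure the spread between these libraries, which may be technical. The 10 genes and the other lists were chosen with earlier results of these data known.

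All deposited barcodes were used, and no doublet caller was run. A barcode was positive with 1 UMI or more. Shares were computed per library and averaged, and barcodes were thinned to 1000 UMIs (500 as an alternative) to compare depths. Shares, co-detection and rankings are descriptions with no test. Counts summed per library were tested with edgeR 4.0.16 (quasi-likelihood, TMM scaling, edgeR's filter on low counts, sex as covariate, Benjamini-Hochberg over all genes tested) in R 4.3.3; DESeq2 1.42.0 was an alternative. Other steps used Python 3.11.15, numpy 2.4.6, scipy 1.17.1, pandas 2.3.3 and matplotlib 3.10.9. In simulated counts the test of ntCZC against tissue recovered 81.3% of log2 changes of 1 and 96.9% of changes of 2 over 10382 genes. Named were all 10 members, up to 3 called genes of largest change per platelet list, and the 10 genes most enriched in barcodes with 3 or more members (present in at least 20% of at least 20 such barcodes); leading genes of barcodes with a single member were chosen after their values were seen. Of 25 replicate pairs none agreed within sampling noise. Alternatives were RLE scaling, no filter on low counts, a barcode filter (200 genes or more, mitochondrial UMIs up to 20%), removal of 4 haemoglobin genes, no sex term, a replicate block, 2 UMIs for a positive barcode and leaving out each library.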

Additional observations from a re-analysis of the deposited data

Results flagged for a closer look

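Among the 4 het ntCZC libraries, replicate 4 was flagged as apart from the others for 7 members. It had 6.15 CPM of Gp9, 0.385 of Gp1bb, 2.69 of Tubb1 and 3.85 of Treml1 where the other 3 had 0. A count of 0 allows up to 3.15, 8.08 and 1.71 CPM in het replicates 1, 2 and 3. The Gp1bb value was 1 UMI and lay below all of these limits, and the other values each lay below at least 1 of them. Replicate 4 also had 8.46 CPM of Itga2b (next highest 0.570), 13.1 of Clec1b (next 3.42) and 13.1 of Nrgn (next 2.1). Among the null libraries, replicate 4 stood out in the same way for Gp9 (20.6 CPM, the others 0) and Itga2b (35.1 CPM, next 1.41). These are 9 flags among 30 sets examined, each of 1 gene in 1 group of 4 or more libraries. The rule was made for a rate of about 1 in 20, which does not hold for such sparse counts. Where the other libraries have 0, any single UMI is flagged. The 9 are not independent, since in each library most of the molecules lay in 1 barcode: 91.3% of the UMIs of the 9 members other than Pf4 in het replicate 4 and 85.1% in null replicate 4.

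In the 2 tissue libraries without a group, 3 of 20 values exceeded the highest of the 9 grouped tissue libraries. In the library labelled replicate 1 Ppbp stood at 47.6 CPM (grouped maximum 4.68). In the library labelled replicate 3 Gp9 stood at 1.97 CPM (maximum 1.25) and Treml1 at 0.947 CPM (maximum 0.663). These differences were not tested. With 20 values compared, some are likely to pass the highest of 9 libraries without any real difference.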

How the results depend on the processing

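Of the main shares and counts, 224 alternative values stayed within the tolerance set for each result and 45 moved beyond it. That tolerance was wide for shares. Counted within it were Csf1r co-detection in ntCZC down to 0.412% (reported 4.47%) and Pf4 in tissue from 1.32 to 7.81% (reported 4.54%). So was the ntCZC share with 3 or more members, down to 0.284% (reported 2.38%). Thinned to 1000 UMIs, Pf4 was in 0.366% of PBMC barcodes and 3 or more members in 0% of PBMC and 0.144% of tissue barcodes; for tissue this was 0.0922% at 500 UMIs and 0.139% when 2 UMIs were required. The share of S100a8-positive ntCZC barcodes with 2 or more members was 9.02% (1000 UMIs), 3.39% (500 UMIs) and 5.11% (2 UMIs). In PBMC that share was 11.8% at 1000 UMIs (reported 4.62%). That depth left 546 PBMC barcodes, none of the 13 platelet barcodes of PBMC and fewer S100a8-positive barcodes than the 65 reported, so no rise is read from it. For ntCZC against tissue 10698 genes were called with no filter on low counts, where more genes were tested than the 10681 of the main fit. Among them were 6 members: Pf4, Ppbp and the 4 that did not pass the filter (Gp9, Gp1bb, Tubb1 and Treml1). With RLE scaling, with filtered barcodes or without haemoglobin genes 1 member (Pf4) was called. Leaving out 1 library gave 1 to 3 members: Ppbp fell below the filter on low counts when any 1 tissue library was left out and was not called without ntCZC null replicate 4 or wt replicate 3, Gng11 was called without wt replicate 3 and Nrgn without null replicate 2. Alas2, an erythroid gene, turned from 4.21 to -0.0615 on the log2 scale with filtered barcodes (edgeR, adjusted p = 0.975). For null against het 60 genes were called with no filter and 21 with DESeq2, and 0 to 25 without 1 library (25 without het replicate 4, 1 without null replicate 2). For het against wt the counts were 5 (RLE), 92 (no filter, 4 members), 106 (DESeq2, 2 members) and 3 (no sex term), and 2 to 96 without 1 library, with 0 to 1 members: 96 without wt replicate 1, 48 without het replicate 4, 3 without het replicate 1, 2 without het replicate 2 and 5 without het replicate 3. For null against wt they were 4 (no filter) and 13 (DESeq2), and 0 to 64 without 1 library (64 without wt replicate 1). Where no construction shows the cause, the cause was not tested. Of 3252 single-gene values over all lists, 3003 kept call and direction, 38 gained and 19 lost a call and 192 changed sign, 191 of them called in neither fit (27 of 465 values of members, none called). Leaving out 1 library, Itga2b ran from -0.087 to 1.15 for ntCZC against tissue (log2). For null against het the values ran from -4.91 to 7.75 (Ppbp), -1.30 to 2.67 (Pf4), -2.14 to 3.77 (Gng11), -5.01 to 6.74 (Gp9), -3.78 to 3.10 (Clec1b), -6.17 to 9.21 (Nrgn), -1.60 to 4.68 (Itga2b) and -4.39 to 6.63 (Treml1), lowest without het replicate 3 and highest without null replicate 2. For het against wt Pf4 ran from -0.88 to 4.09. For null against wt they ran from -8.04 to 0.64 (Ppbp), -0.013 to 4.80 (Pf4), -9.03 to 2.49 (Gp9), -6.40 to 3.23 (Nrgn) and -5.87 to 2.33 (Treml1). Blood libraries of few barcodes and 2 wt libraries limit what could be seen.

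The labels do not say that replicate numbers mark shared animals, although 4 of the 6 same-numbered pairs of ntCZC and tissue libraries have the same age and sex, and the correlations did not meet the bar set for pairing: 2 of 6 same-numbered pairs of ntCZC and tissue correlated above 0.1 (-0.160 to 0.156; 0.1 in every pair was needed), and 3 of 8 within ntCZC. With the replicate number as a block, 1 member (Pf4) was called for ntCZC against tissue and 0 genes for het against wt. The block turned Pf4 to -1.18 for het against wt and, for null against wt, Pf4 to -0.78, Gng11 to 0.28, Nrgn to 2.11 and Treml1 to 0.47, none called.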

Other observations

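Ppbp in the tissue library without a group that is labelled replicate 1 (a female of 647 days) was counted in 1678 UMIs from 168 of 22397 barcodes, whereas the other library without a group had 111 UMIs (4.38 CPM). Pf4 there was at 18.5 CPM, within the range of the grouped tissue libraries. Of the Ppbp-positive barcodes 87 had no other member. Genes that led these, chosen after their values were seen, were Clca3b (20.7 against 0.103% of barcodes with no member), Prss27 (23.0 against 0.232%), Krt13, a keratin of stratified epithelia (20.7 against 0.289%), Sprr2d (21.8 against 0.346%) and the chemokine Cxcl5 (25.3 against 0.439%). The barcode with the most Ppbp held 180 UMIs of it.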
